A study of Rattus norvegicus with 6 samples.

Results

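The Cyp3a subfamily of cytochrome P450 genes was examined on 6 arrays of rat renal cortex. Its members were the 5 genes Cyp3a23-3a1, Cyp3a2, Cyp3a18, Cyp3a9 and Cyp3a62, found by matching the accession of every non-control probe to RefSeq genes. Each gene was matched by 1 probe, so the subfamily held 5 of 61537 non-control probes and 5 of 15645 named genes. They were chosen by name with the log2 differences between the treated and the corn oil arrays already known, so their levels in the 2 groups are given as a description and without a test. The arrays came from male Sprague-Dawley rats bought at 5 weeks of age. For 4 weeks, 3 rats received sulfone bis(p-chlorophenyl), in which a sulfonyl group joins a pair of chlorinated benzene rings, at 250 mg per kg and day, and the other 3 were given corn oil. Each array held the RNA of a separate animal.

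CYP3A enzymes are monooxygenases of the endoplasmic reticulum that oxidise steroids, bile acids and a wide range of drugs. Their best known regulator is the pregnane X receptor PXR (Nr1i2), which binds the promoters of Cyp3a genes as a partner of the retinoid X receptor RXR and is activated by many foreign compounds. In rat liver Cyp3a23-3a1 is the form known for strong induction by such compounds, Cyp3a2 and Cyp3a18 are known as male-predominant forms, Cyp3a9 is known as a female-predominant form, and Cyp3a62 is known mainly from the intestine.

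The promoters of the 3 genes whose probes could be tested are shown because their letters separate them on the element that PXR is known to bind. Each is the stretch of 250 bases before the start that RefSeq's promoter sequences use on GRCr8, written along the gene's own strand. For Cyp3a2 the RefSeq gene record begins 29 bases further upstream than that start, so its window holds 29 bases of the record; for the other 4 genes the offset was 0. The windows lie at chr12:14398804-14399053 (minus strand) for Cyp3a23-3a1, chr12:14343858-14344107 (minus strand) for Cyp3a2 and chr12:13994062-13994311 (plus strand) for Cyp3a18. Capitals mark the direct repeat in the first pair of sequences and the single hexamers in the third.
Cyp3a23-3a1: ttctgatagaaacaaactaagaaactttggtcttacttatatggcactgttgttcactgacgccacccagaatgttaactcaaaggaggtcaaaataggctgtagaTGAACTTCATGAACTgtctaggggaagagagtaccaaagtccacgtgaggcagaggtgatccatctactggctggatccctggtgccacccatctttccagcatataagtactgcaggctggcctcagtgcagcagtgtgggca
Cyp3a2: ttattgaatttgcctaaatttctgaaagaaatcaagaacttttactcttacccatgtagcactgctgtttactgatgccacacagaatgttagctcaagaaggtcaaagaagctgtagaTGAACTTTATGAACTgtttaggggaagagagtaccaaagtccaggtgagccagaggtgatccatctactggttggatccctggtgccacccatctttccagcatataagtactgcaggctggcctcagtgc
Cyp3a18: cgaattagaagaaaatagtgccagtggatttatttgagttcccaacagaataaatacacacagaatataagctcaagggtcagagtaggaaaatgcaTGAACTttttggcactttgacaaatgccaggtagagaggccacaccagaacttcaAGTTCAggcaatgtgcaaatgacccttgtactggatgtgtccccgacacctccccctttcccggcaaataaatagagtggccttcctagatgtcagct

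The motif searched was a direct repeat of the hexamers AGTTCA or AGGTCA, in any combination and on both strands, with a spacer of 3 bases (DR3), for example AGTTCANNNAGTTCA. The search covered 250 bases before to 50 bases after each gene's start. DR3 was found in the windows of 2 of the 5 genes, Cyp3a23-3a1 and Cyp3a2, and in 14 of 33469 windows of the whole RefSeq table (0.0418%). With AGTTCA as the only hexamer allowed, 2 of the 33469 windows held it (0.00598%), and these were the same 2 genes. The repeat TGAACTTCATGAACT began 144 bases before the start of Cyp3a23-3a1, and TGAACTTTATGAACT began 131 bases before the start used for Cyp3a2, or 102 bases before its gene record. A spacer of 4 bases (DR4) and an everted repeat with a spacer of 6 bases (ER6) were found in 0 of the 5 windows, against 6 (0.0179%) and 2 (0.00598%) of all windows. The 250 bases of Cyp3a23-3a1 and Cyp3a2 were identical in 210 of 265 alignment columns (79.2%), while every other pair of the 5 genes lay between 52.5% and 66.8%. In the order of genes on chromosome 12, Cyp3a2 and Cyp3a23-3a1 were neighbours with 0 genes between them, and Cyp3a18 lay on the other side of Cyp3a2. A further 170 genes separated Cyp3a23-3a1 from Cyp3a62, and 5 genes lay between Cyp3a62 and Cyp3a9.

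Between 66.1% and 68.2% of non-control probes were well above background on an array, the scanner software's call that a spot exceeds its background. The tissue label was checked on 14 kidney markers, such as the proximal tubule receptors Lrp2 and Cubn and the loop of Henle gene Umod, and all 14 were well above background on all 6 arrays. Arrays were divided unevenly between slides, with treated 1 and corn oil 1 to 3 on slide 1 and treated 2 and 3 on slide 2. All levels are log2 values of the processed signal relative to the 75th percentile of the same array, so a level of 0 is that percentile. A probe's level is not read as more or less RNA than another probe's. Differences and sums over probes serve only to compare arrays.

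Cyp3a23-3a1 separated the 2 groups by the widest margin of the subfamily. The levels of its probe on treated 1, 2 and 3 were -1.24, 0.08 and 2.19, and those on corn oil 1, 2 and 3 were -4.48, -5.56 and -7.79. Every treated array lay above every corn oil array, and the lowest treated value exceeded the highest corn oil value by 3.24. The probe was well above background on 3 of 3 treated arrays and on 1 of 3 corn oil arrays, so the values of corn oil 2 and 3 are not measured levels. Means were 0.35 ± 1.73 in treated cortex and -5.94 ± 1.69 in corn oil cortex (SD, n = 3 each), a fitted difference of 6.29 (SE 1.14). Background correction by normexp, which raises dim spots, gave 4.03.

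Cyp3a2, a male-predominant liver form that hydroxylates testosterone, was well above background on all 6 arrays. Its levels were -1.68, -0.39 and 1.54 on treated 1, 2 and 3, against -1.13, -2.06 and -5.18 on corn oil 1, 2 and 3. The groups overlapped, since treated 1 lay below corn oil 1. Means were -0.18 ± 1.62 in treated cortex and -2.79 ± 2.12 in corn oil cortex (SD, n = 3 each), a difference of 2.61 (SE 1.26), and 1.41 without corn oil 3.

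Cyp3a18 had the same order of arrays. Its levels were -4.08, -2.98 and -0.40 on treated 1, 2 and 3, against -3.79, -5.20 and -7.23 on corn oil 1, 2 and 3. Treated 1 again lay below corn oil 1, and corn oil 3 was the only array on which the probe was not well above background. Means were -2.49 ± 1.89 in treated cortex and -5.40 ± 1.73 in corn oil cortex (SD, n = 3 each). The difference was 2.92 (SE 1.21), and it was 1.87 without treated 3 and 1.41 with normexp.

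Cyp3a9 and Cyp3a62 were dim. Cyp3a9 was well above background on treated 3 alone, at -5.36. On the other 5 arrays its values, all below that call, were -7.70 and -7.32 on treated 1 and 2, against -8.06, -6.48 and -7.30 on corn oil 1, 2 and 3. The Cyp3a62 probe was well above background on 0 of 6 arrays, with values of -6.18, -7.52 and -6.03 on treated 1, 2 and 3, against -7.96, -7.39 and -7.81 on corn oil 1, 2 and 3. Neither probe was tested, and no difference is given for either. Testing required a probe to exceed background in this sense on every array of the treated or of the corn oil group. Of the 5 probes, 3 met that condition through the treated arrays, and of these Cyp3a2 also met it through the corn oil arrays.

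**Figure D1:**
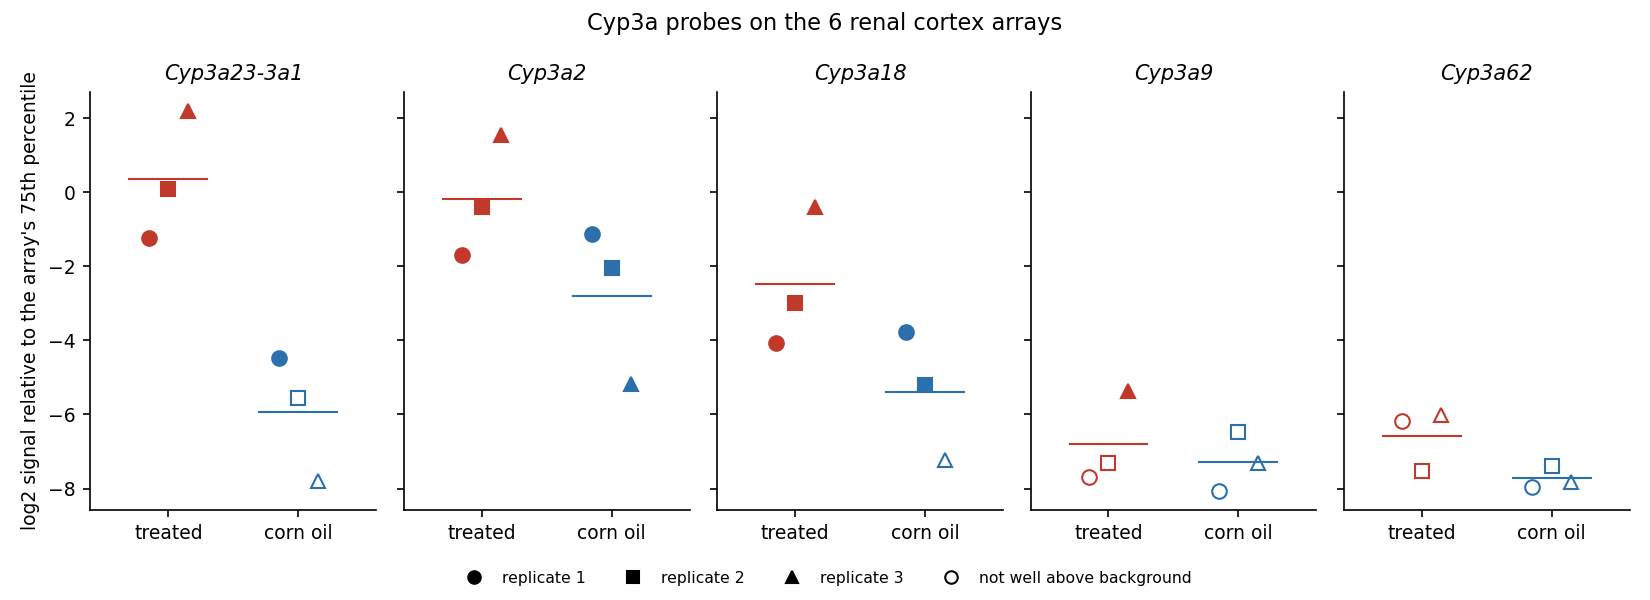
Level of each of the 5 Cyp3a probes (log2 signal relative to the array's 75th percentile) on treated and corn oil arrays, with group means as lines, symbols by replicate number and open symbols for values not well above background. Cyp3a23-3a1 is the only panel of the 3 tested genes in which the treated arrays, from -1.24 to 2.19, all lie above the corn oil arrays, from -7.79 to -4.48.

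None of the 3 tested members was among the 3 probes that limma called at an adjusted p under 0.05 (0.00738% of tested probes, with 0.00246% higher and 0.00492% lower). At an unadjusted p under 0.05 limma counted 20.6% of tested probes. The groups did not overlap, with treated higher, for 1 of the 3 tested members, against 28.4% of all tested probes in either direction, 11.5% with treated higher and 17.0% with treated lower. Since the contrast was used to choose the genes, nothing is read from these counts. The close relationship of the genes limits how their probes can be assigned: probe sequences were not used here, and RNA of one paralog that hybridises to another's probe cannot be told apart from RNA of the named gene. RefSeq lists 8 Cyp3a genes on chromosome 12, and 3 of them (Cyp3a73, Cyp3a2l1 and Cyp3a71-ps) were matched by 0 probes.

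The 3 tested members varied strongly among animals of the same group. Their pooled within-group SD was 1.71 for Cyp3a23-3a1, 1.89 for Cyp3a2 and 1.81 for Cyp3a18, against a median of 0.153 over all tested probes. Each of these spreads exceeded that of at least 99.8% of tested probes. In all 3 genes treated 3 was the highest treated array and treated 1 the lowest, while corn oil 1 was the highest corn oil array and corn oil 3 the lowest. The pooled spreads and the corn oil order of Cyp3a23-3a1 and Cyp3a18 rest in part on values not well above background. On the treated arrays, where every value was well above background, the SD was 1.73 for Cyp3a23-3a1, 1.62 for Cyp3a2 and 1.89 for Cyp3a18.

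Alb and Ttr, a pair of transcripts that are abundant in liver, followed the same order. Alb, which encodes serum albumin, had levels of 1.26, 2.12 and 3.92 on treated 1, 2 and 3, against 3.49, 2.43 and -0.28 on corn oil 1, 2 and 3. Ttr, which encodes the thyroid hormone carrier transthyretin, had 0.76, 1.55 and 3.70 on treated 1, 2 and 3, against 3.12, 1.97 and -0.90 on corn oil 1, 2 and 3. The slope on Alb over the 3 arrays of a group was 1.27 in treated and 0.87 in corn oil cortex for Cyp3a23-3a1, 1.19 in treated and 1.09 in corn oil cortex for Cyp3a2, and 1.39 in treated and 0.88 in corn oil cortex for Cyp3a18. The corn oil slopes of Cyp3a23-3a1 and Cyp3a18 rest in part on values not well above background. The group difference of Alb was 0.55 (SE 1.12, limma adjusted p = 0.80) and that of Ttr was 0.61 (SE 1.21, limma adjusted p = 0.797). In tissue RNA, fewer cells of a type and less RNA per cell cannot be told apart.

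The whole list of 30 liver markers moved less uniformly than Alb and Ttr. Of 27 tested members, 23 were higher on treated 3 than on treated 1, 21 were higher on corn oil 1 than on corn oil 3, and 20 were both. The slope on Alb exceeded 0.5 for 11 of the 26 other tested members. The summed signal of the list, on a linear scale relative to the 75th percentile, was 242, 272 and 323 on treated 1, 2 and 3, against 313, 270 and 265 on corn oil 1, 2 and 3. The antithrombin gene Serpinc1 alone made up 30.5% of that signal, a share that also depends on how bright each probe is. Of the 30 liver markers, 24 were well above background on all 6 arrays. The urea cycle gene Cps1, the bile acid gene Cyp7a1 and the tyrosine-degrading Tat were so on 0 of 6 arrays. Of 9 small intestine markers on the array, 5 were well above background on all 6 arrays, and Fabp2, Lgals4 and Olfm4 on 0 of 6. The 5 tested members had a median difference of -0.05. The summed signal of the 9 markers was 4.49 to 8.64 on treated arrays and 5.61 to 5.95 on corn oil arrays.

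**Figure D2:**
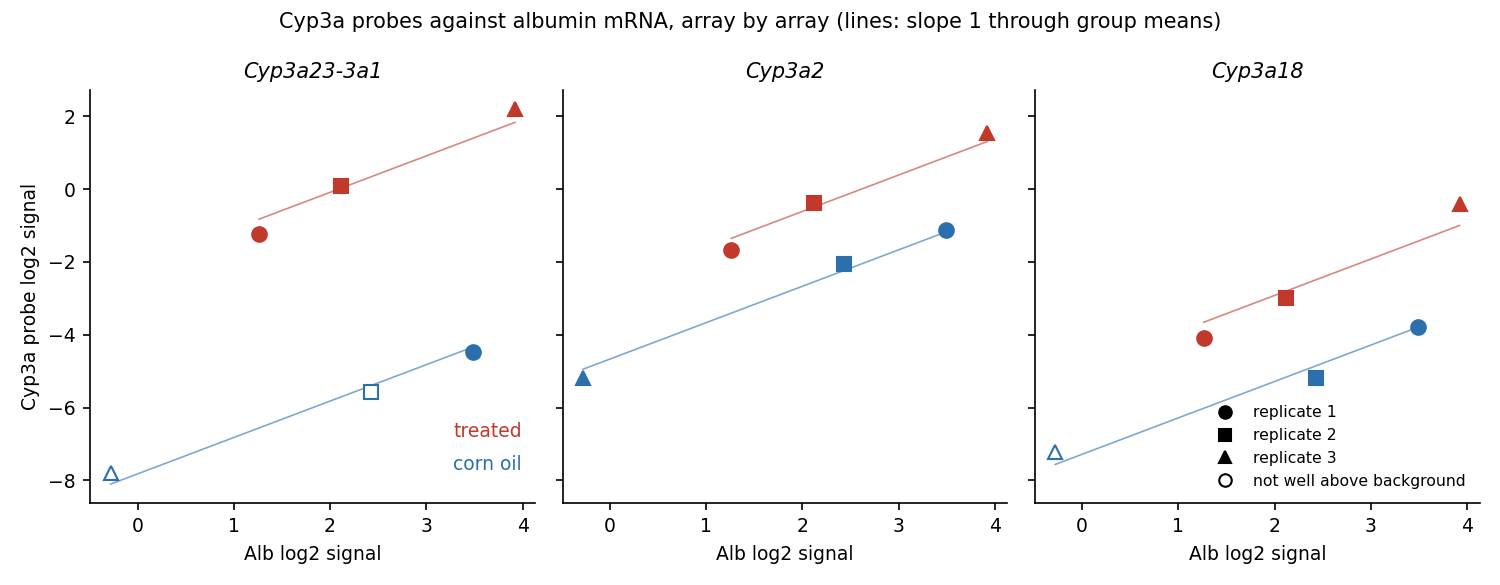
Level of each of the 3 tested Cyp3a probes against the level of Alb on the same array (both log2 relative to the 75th percentile), with treated and corn oil arrays in separate colours. Within each group the points climb together, and at a given Alb level the treated points lie above the corn oil points.

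Set against Alb on the same array, the 3 genes separated the groups with little spread. Cyp3a23-3a1 minus Alb was -2.50, -2.04 and -1.73 on treated 1, 2 and 3, against -7.97, -7.99 and -7.51 on corn oil 1, 2 and 3. Cyp3a2 minus Alb was -2.95, -2.51 and -2.39 on treated 1, 2 and 3, against -4.62, -4.49 and -4.90 on corn oil 1, 2 and 3. Cyp3a18 minus Alb was -5.34, -5.10 and -4.32 on treated 1, 2 and 3, against -7.28, -7.63 and -6.95 on corn oil 1, 2 and 3. As measured, every treated array exceeded every corn oil array in all 3 genes, but for Cyp3a18 this rests on a corn oil 3 value not well above background. Raised to the floor, the array's lowest signal well above background, Cyp3a18 minus Alb was -5.31 on corn oil 3, above the -5.34 of treated 1. Relative to Alb, the group difference was 5.73 (SE 0.27) for Cyp3a23-3a1, 2.06 (SE 0.21) for Cyp3a2 and 2.36 (SE 0.37) for Cyp3a18. Relative to Ttr it was 5.68 (SE 0.29), 2.00 (SE 0.17) and 2.31 (SE 0.33) for the same genes in the same order. On slide 1 alone, where treated 1 stands against the 3 corn oil arrays, the differences relative to Alb were 5.32 for Cyp3a23-3a1, 1.72 for Cyp3a2 and 1.94 for Cyp3a18. Without Alb, the same comparison on slide 1 gave 4.71, 1.11 and 1.32 for these genes. Raising values below the floor to it changed no array but corn oil 3. Cyp3a23-3a1 on corn oil 2 (-5.56), although not well above background, lay above that array's floor (-5.72) and was kept. After this step Cyp3a23-3a1 minus Alb averaged -2.09 ± 0.39 in treated cortex and -7.09 ± 1.54 in corn oil cortex (SD, n = 3 each). The Alb-relative difference of Cyp3a18 was then 1.82 (SE 0.78). The comparison with Alb was chosen after its values were seen, and it shows unequal change of the 2 probes, not that Alb stayed the same. Its size, and for Cyp3a2 the separation itself, depend on the liver transcript used. Differences of the 27 tested liver markers ran from -0.36 to 2.32, with a median of 0.38. The highest, Apoa1 at 2.32 (SE 1.01), lay near the 2.61 of Cyp3a2 and the 2.92 of Cyp3a18. Apoa1 stood at -2.22 on treated 1 and at -1.90 on corn oil 1. Cyp3a2, at -1.68 and -1.13 on these arrays, exceeded Apoa1 by more on corn oil 1, so relative to Apoa1 the groups overlapped.

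Within the subfamily the difference of Cyp3a23-3a1 stood apart from those of Cyp3a2 and Cyp3a18. Cyp3a23-3a1 minus Cyp3a2 was 0.45, 0.47 and 0.66 on treated 1, 2 and 3, against -3.35, -3.51 and -2.60 on corn oil 1, 2 and 3, a shift of 3.68 (SE 0.29). With dim values raised to the floor this shift was 2.95 (SE 1.01). Cyp3a23-3a1 minus Cyp3a18 was 2.84, 3.06 and 2.59 on treated 1, 2 and 3, against -0.69, -0.36 and -0.56 on corn oil 1, 2 and 3. On corn oil 2 and 3 the Cyp3a23-3a1 value of this pair was not well above background, and on corn oil 3 neither was Cyp3a18. With the floor the shift was 3.18 (SE 0.24), with corn oil 3 at 0 because both values lay on the floor. Cyp3a18 minus Cyp3a2 overlapped between the groups: it was -2.40, -2.59 and -1.94 on treated 1, 2 and 3, against -2.65, -3.15 and -2.04 on corn oil 1, 2 and 3, a shift of 0.31 (SE 0.37). With the floor that last shift was -0.24 (SE 0.86), so its sign is not settled. In the promoter windows, Cyp3a23-3a1 and Cyp3a2 carried the DR3 repeat and Cyp3a18 did not. Only exact repeats near the start were searched, and a link between the repeat and these levels was not tested.

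**Figure D3:**
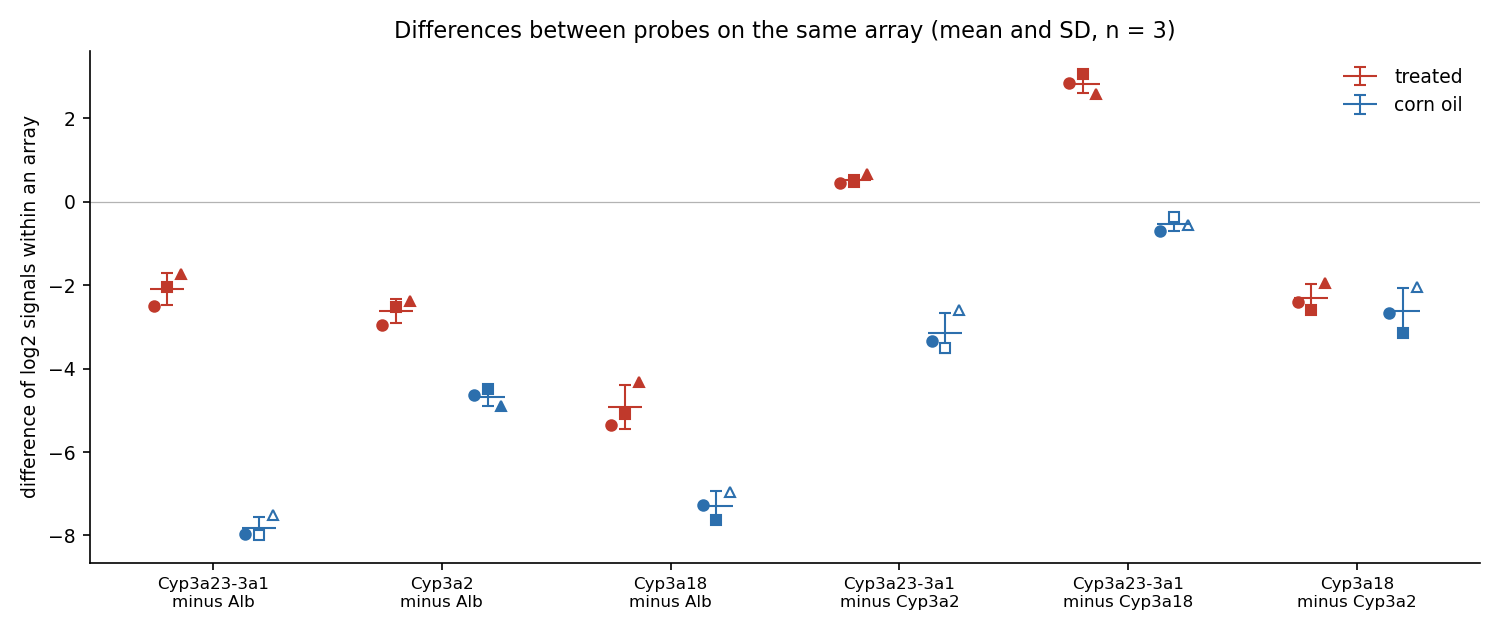
Differences of log2 signals between 2 probes on the same array, for treated and corn oil arrays, with mean and SD (n = 3 each), symbols by replicate number and open symbols where a Cyp3a value was not well above background. As measured, the groups are apart in every comparison with Alb and in both that subtract a paralog from Cyp3a23-3a1, and they overlap for Cyp3a18 minus Cyp3a2 and, with dim values at the floor, also for Cyp3a18 minus Alb.

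A model with the Alb level as a covariate gave differences of 5.73 (SE 0.26) for Cyp3a23-3a1, 1.99 (SE 0.13) for Cyp3a2 and 2.34 (SE 0.33) for Cyp3a18. With Ttr in its place the values were 5.73 (SE 0.25), 1.98 (SE 0.16) and 2.33 (SE 0.30) in the same order. Both covariates were added after seeing the data. The standard errors without a covariate were 1.14, 1.26 and 1.21. The covariate fits of Cyp3a23-3a1 and Cyp3a18 rest in part on corn oil values not well above background. Their small standard errors are therefore not read as precision. With dim values raised to the floor, the difference relative to Alb had an SE of 0.92 for Cyp3a23-3a1 and 0.78 for Cyp3a18.

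**Figure D4:**
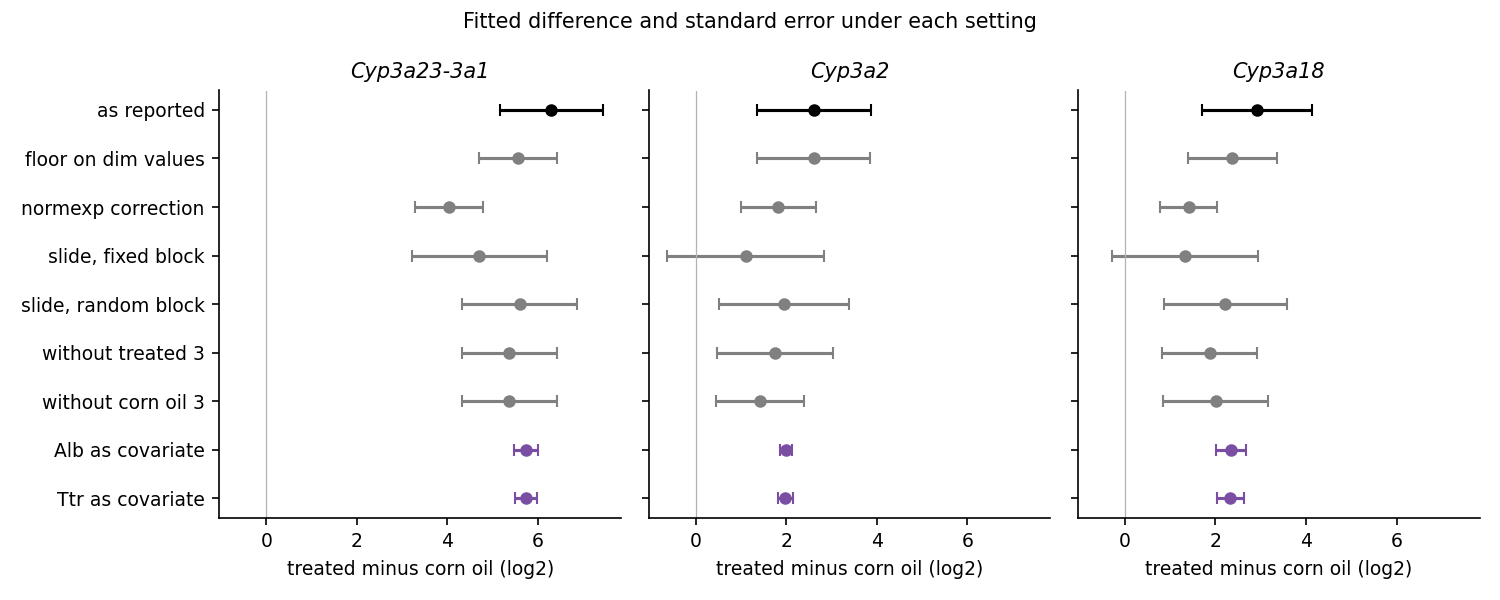
Fitted difference between treated and corn oil arrays (log2, bars are SE) for Cyp3a23-3a1, Cyp3a2 and Cyp3a18 under the settings named on the axis, with the Alb and Ttr covariate models in purple. Every estimate drawn is above 0, from 4.03 to 6.29 for Cyp3a23-3a1, from 1.11 to 2.61 for Cyp3a2 and from 1.32 to 2.92 for Cyp3a18. The purple bars of Cyp3a23-3a1 and Cyp3a18 rest in part on corn oil values not well above background.

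The genes nearest to each member in pattern were found by the root mean square (RMS) difference of centred log2 values over the 6 arrays, among 12117 other tested genes. Nearest to Cyp3a23-3a1 were Cyp2b21 (RMS difference 0.788), Ugt2b1 (0.988), Cyp2b1 (1.02), Cyp2c6v1 (1.11) and Cyp2b2 (1.42), which are P450 genes apart from the glucuronosyltransferase gene Ugt2b1. Cyp3a23-3a1 was well above background on 1 of 3 corn oil arrays and Cyp2b21, Ugt2b1 and Cyp2b1 on 0 of 3, so these distances rest in part on background values and on the contrast by which the gene was chosen. Cyp3a18 ranked 7 (1.69) and Cyp3a2 ranked 9 (1.86) on that list. Nearest to Cyp3a2 were the apolipoprotein gene Apoa1 (0.395), Cyp3a18 (0.404), the serpin gene Serpina3c (0.540), the acute phase gene Orm1 (0.552) and Apoa2 (0.571). Nearest to Cyp3a18 were Orm1 (0.351), Cyp3a2 (0.404), Apoa1 (0.406), Serpina3c (0.591) and Apoa2 (0.616). Orm1 was well above background on 1 of 3 corn oil arrays and Cyp3a18 on 2 of 3. Distances that involve Orm1 or Cyp3a18 therefore also rest in part on background values. Cyp3a23-3a1 itself ranked 879 from Cyp3a2 and 170 from Cyp3a18.

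The receptors that are known to act on Cyp3a promoters were measured with other probes. None of the 21 tested genes of 25 listed receptors and cofactors passed an adjusted p of 0.05 in limma, and at an unadjusted p under 0.05 there were 4 higher and 2 lower, against 8.37% and 12.2% of all tested probes. This list and those below were chosen with earlier results of these data known, so nothing is read from their counts. The shares are over probes, while the lists count 1 probe a gene. The median difference of the list was 0.05, beside -0.01 over all tested genes. Nr1i2, the gene of PXR itself, had levels of 2.46, 2.65 and 2.59 on treated 1, 2 and 3, against 2.50, 2.36 and 2.52 on corn oil 1, 2 and 3 (difference 0.11, SE 0.09, limma adjusted p = 0.509). Treated 1 lay inside the corn oil range. Nr1i3, the gene of the related receptor CAR, had a difference of 0.37 (SE 0.21, limma adjusted p = 0.368), and Rxra, the shared partner, 0.04 (SE 0.22, limma adjusted p = 0.926). The widest differences among its tested genes were those of Cebpb, a liver-enriched transcription factor gene (0.89, SE 0.25, limma adjusted p = 0.16), and Ppargc1b, a coactivator gene (0.65, SE 0.11, limma adjusted p = 0.095). Hnf4a, which is known to be needed for Cyp3a expression in liver, differed by 0.48 (SE 0.14, limma adjusted p = 0.171), the corepressor gene Nr0b2 by 0.45 (SE 0.15), Nr2f2 by -0.32 (SE 0.10) and the glucocorticoid receptor gene Nr3c1 by -0.29 (SE 0.11). On slide 1 alone the differences were 0.07 for Nr1i3, -0.15 for Nr2f2, -0.095 for Nr3c1 and 0.0030 for Nr1i2, and Rxra turned to -0.43.

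P450 enzymes draw electrons from a few membrane proteins, and 0 of the 6 tested genes of that list passed in limma. At an unadjusted p under 0.05 there were 4 higher and 0 lower, against 8.37% and 12.2% of all tested probes, with a median difference of 0.41. Por, which encodes the reductase that feeds all microsomal P450 enzymes, had levels of 3.49, 4.10 and 4.42 on treated 1, 2 and 3, against 2.99, 2.93 and 2.86 on corn oil 1, 2 and 3. Its groups did not overlap, and the difference was 1.08 (SE 0.23, limma adjusted p = 0.121), and 0.57 on slide 1 alone. The cytochrome b5 genes Cyb5a (0.45, SE 0.10, limma adjusted p = 0.130) and Cyb5b (0.42, SE 0.13, limma adjusted p = 0.178) and the b5 reductase gene Cyb5r3 (0.39, SE 0.08, limma adjusted p = 0.109) had differences of similar size. The heme-binding partners Pgrmc1 and Pgrmc2 had differences of 0.20 (SE 0.10) and -0.06 (SE 0.07).

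Other genes known as PXR and CAR targets were the list with the highest median. This list also holds Por, which is counted among the electron donors as well. Of 22 tested genes 0 passed an adjusted p of 0.05 in limma, 10 were higher and 0 lower at an unadjusted p under 0.05, against 8.37% and 12.2% of all tested probes, and 11 did not overlap between groups with treated higher, against 11.5% of all tested probes. The list was chosen with earlier results of these data known, and Cyp2b1, Ugt2b1 and Cyp2c6v1 met the testing condition through the treated arrays alone. Nothing is therefore read from these counts. The median difference of the list was 0.58, and it was 0.27 for treated 1 against the corn oil arrays on slide 1. Cyp2b1, a phenobarbital-inducible P450 gene in liver, was well above background on 3 of 3 treated and 0 of 3 corn oil arrays. Its limma adjusted p was 0.081, and Ugt2b1, with the same counts of arrays, had a limma adjusted p of 0.095. Both p-values set treated signal against corn oil values not well above background, so they are given as a description only. Set against each corn oil array's lowest signal well above background, the treated mean was 17.8-fold higher for Cyp2b1 and 10.01-fold higher for Ugt2b1. These folds hold for this signal scale and are not lower bounds under every setting. Normexp gave smaller log2 differences of 2.53 for Cyp2b1 and 1.95 for Ugt2b1. With slide as a fixed block the log2 differences were 4.46 and 3.30, resting on corn oil values not well above background. Cyp2b2 had levels of 0.46, 1.76 and 3.55 on treated 1, 2 and 3, against -2.02, -2.28 and -2.30 on corn oil 1, 2 and 3. Its treated arrays had the order seen in Cyp3a23-3a1, while its corn oil arrays lay within 0.283 of each other (difference 4.12, SE 0.74, limma adjusted p = 0.097). On slide 1 alone the Cyp2b2 difference was 2.65. The bilirubin glucuronosyltransferase gene Ugt1a1 (0.74, SE 0.12), Ugt1a6 (0.56, SE 0.09) and the stress gene Gadd45b (0.83, SE 0.16) had limma adjusted p-values of 0.089, 0.094 and 0.111. The transporter genes Abcb1b (-0.22, SE 0.26, limma adjusted p = 0.650) and Abcc2 (-0.06, SE 0.17, limma adjusted p = 0.850) had differences within their errors, and Abcb1a was well above background on 2 of 3 arrays in each group and was not tested.

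**Figure D5:**
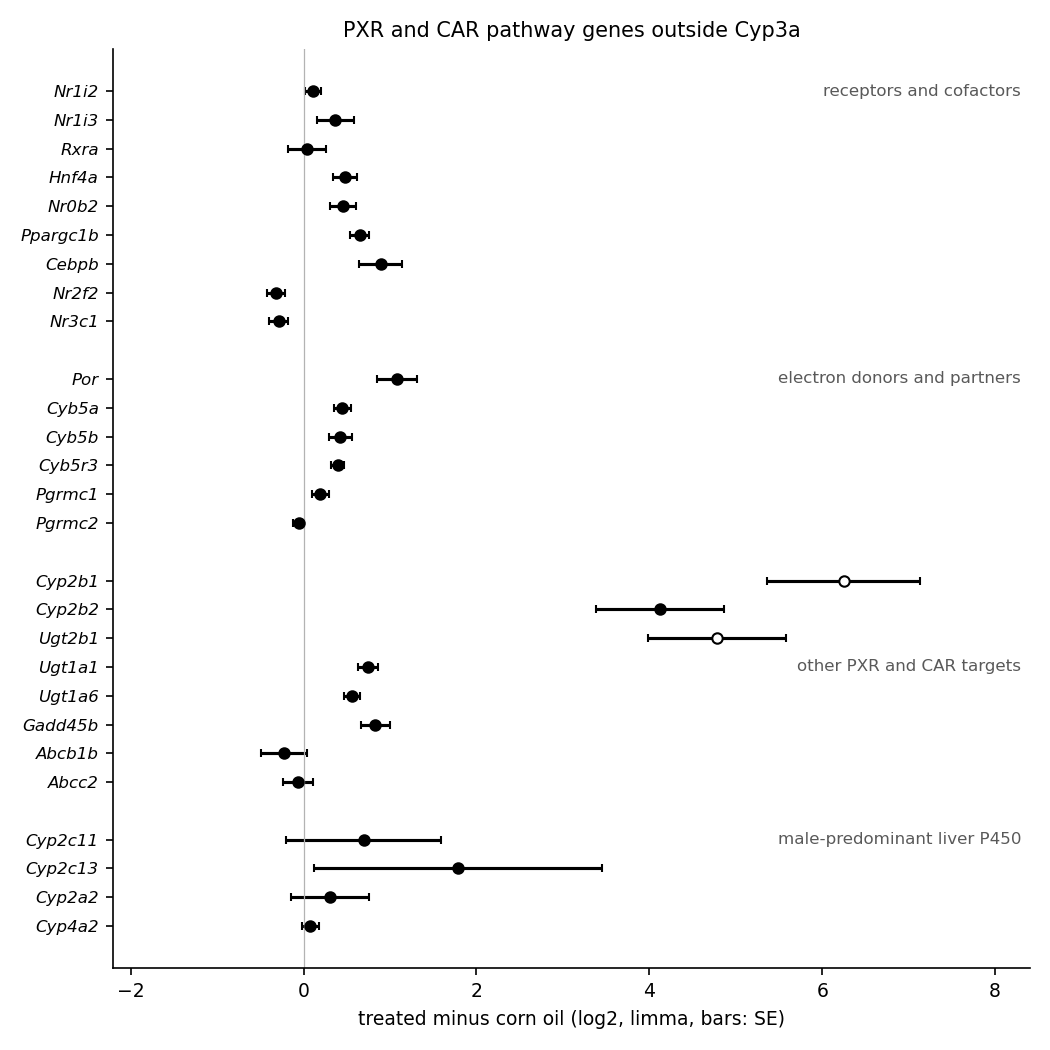
Fitted difference between treated and corn oil arrays (log2, bars are SE) for receptors and cofactors, electron donors and partners, other PXR and CAR targets and male-predominant liver P450 genes, with open symbols where 0 corn oil arrays were well above background. Cyp2b2 lies at 4.12, the open symbols of Cyp2b1 and Ugt2b1 rest on corn oil values that were not measured levels, and the receptor genes Nr1i2, Nr1i3 and Rxra lie between 0.04 and 0.37.

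Male-predominant P450 genes of rat liver were listed because Cyp3a2 and Cyp3a18 share that pattern there. Of the 4 genes, 0 passed an adjusted p of 0.05 in limma and 0 had an unadjusted p under 0.05, with a median difference of 0.50. Cyp2c13 had levels of -3.43, -2.69 and -0.59 on treated 1, 2 and 3, against -1.70, -2.68 and -7.69 on corn oil 1, 2 and 3 (difference 1.79, SE 1.67, limma adjusted p = 0.565). Its arrays had the order of Cyp3a2 in both groups. The corn oil 3 value was not well above background, and without that array the difference was -0.047. Cyp2c11, a steroid hydroxylase gene, had levels of -0.48, 0.71 and 1.66 on treated 1, 2 and 3, against -1.74, 0.16 and 1.39 on corn oil 1, 2 and 3 (difference 0.69, SE 0.90, limma adjusted p = 0.684), and the difference was -0.42 on slide 1 alone. In corn oil cortex its order was the opposite of that of Cyp3a2. Cyp2a2 (0.30, SE 0.45) and Cyp4a2 (0.08, SE 0.10) had limma adjusted p-values of 0.727 and 0.682.

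A wider list of steroid and drug P450 genes, which also holds Cyp2c11, Cyp2c13 and Cyp4a2, gave 0 of 20 tested genes past an adjusted p of 0.05 in limma, with 3 higher and 1 lower at an unadjusted p under 0.05, against 8.37% and 12.2% of all tested probes, and a median difference of 0.25. Cyp2d4 had the lowest adjusted p of the list (0.67, SE 0.10, limma adjusted p = 0.084). Cyp2e1, the ethanol-inducible form, differed by -0.36 (SE 0.08, limma adjusted p = 0.121), and Cyp4f1, a fatty acid hydroxylase gene, by 0.28 (SE 0.09, limma adjusted p = 0.174). Cyp2d1 (1.42, SE 0.59, limma adjusted p = 0.245), Cyp2j4 (1.25, SE 0.45, limma adjusted p = 0.209; 2.01 on slide 1 alone) and Cyp4b1 (0.53, SE 0.23, limma adjusted p = 0.261) had wider errors, and Cyp2d1 was at 0.80 without corn oil 1. The dioxin-inducible genes Cyp1a1 and Cyp1b1 were well above background on 0 of 6 arrays.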

How the data were processed

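RNA of 6 renal cortex samples was labelled with Cy3 and hybridised singly to 1-colour Agilent arrays, per the labels' protocols. The deposited scanner files hold linear intensity values, background-subtracted into a processed signal by Feature Extraction 10.7.1.1, per the file headers (version 10.7, per the submitters' processing notes). The authors' deposited series table of intensity values followed the processed signal closely on each array (log2 correlation above 0.99). Such a correlation does not show by which constant each array was scaled. Levels are log2 of the deposited processed signal, scaled to each array's 75th percentile. Of 61537 non-control probes, 28206 matched 1 RefSeq symbol (assembly GRCr8) and 33331 none. No spot was saturated, 11 probes with outlier flags were left out, and 40643 probes were tested (12118 genes, each by its brightest probe). The comparison used limma (version 3.58.1, under R 4.3.3; lmFit, eBayes, two-sided, Benjamini-Hochberg over all tested probes, threshold 0.05), a step tested on simulated data. The number of arrays limits the precision.

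The members and lists were chosen with earlier results of these data known. Named were all 5 members, the 6 genes of lowest p per list, 14 fixed genes and the 5 nearest genes per member. The genes without signal and the list minima were named after their values were seen. Replicate numbers did not pair animals: same-numbered arrays correlated at -0.211, 0.014 and -0.159 in their deviations from group means. Alternatives covered normexp (offset 50, on the median spot signal, since the mean was not used here), normalization, filters, a floor, slide and replicate blocks, variance modelling and each array left out.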

Additional observations from a re-analysis of the deposited data

How the results depend on the processing

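The Cyp3a differences kept their sign under every setting run. Leaving out 1 array at a time gave 5.37 to 7.08 for Cyp3a23-3a1, 1.41 to 3.44 for Cyp3a2 and 1.87 to 3.73 for Cyp3a18. Cyp3a23-3a1 moved to 4.03 with normexp. With the replicate block the differences stayed at 6.29, 2.61 and 2.92 (SE 1.40, 1.53 and 1.48), and 0 probes were called. The replicate numbers were not taken to pair the animals. The 3 probes called, of which 1 was higher, became 137 with normexp (97 higher), 17 with median centring (12 higher), 156 with a trended and robust variance (109 higher), 1 with no filter, 1 with slide as a fixed block, and 0 with only probes well above background on all arrays or with a floor on dim values. Leaving out 1 array gave 0 to 4307 calls, the highest without treated 1 (1469 higher, 2838 lower). That setting also gave the upper ends of the calls among receptors and cofactors (0 to 2), electron donors and partners (0 to 3), targets (0 to 7) and other P450 genes (0 to 1). The trended variance called 1 target, Ugt1a6, and 1 other P450 gene, Cyp2d4. Signs turned with slide as a fixed block for Alb (-0.62), Ttr (-0.63), Rxra (-0.43), Cyp2c11 (-0.42), Cyp2a2 (-0.45) and Cyp4a2 (-0.10), with slide as a random block for Rxra (-0.16), Cyp2a2 (-0.028) and Cyp4a2 (-0.0029), and with normexp for Rxra (-0.0035). They also turned when 1 array was left out, over ranges of -0.53 to 1.36 for Alb, -0.54 to 1.47 for Ttr, -0.10 to 0.28 for Rxra, -0.15 to 1.42 for Cyp2c11, -0.20 to 0.68 for Cyp2a2, -0.047 to 2.95 for Cyp2c13, -0.22 to 0.055 for Abcc2 and -0.49 to 0.0027 for Abcb1b. The cause was not tested. Slide and group can be separated only through treated 1, and signals near background limit Cyp3a9, Cyp3a62 and the corn oil level of Cyp3a23-3a1. A mean over several probes of a gene gave no separate value, since each member has 1 probe.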
